A study of Danio rerio with 6 samples.

Results

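Fos, Jun, egr1 and Ier genes are immediate early genes, which cells transcribe within minutes of a stimulus without making new protein first. They were read here in livers of adult zebrafish, with 3 libraries of wild-type (WT) genotype and 3 of the genotype labelled lf:Yap, a transgenic line. The members were 10 named genes, fosab, fosl1a, fosl2, jun, junba, junbb, jund, egr1, ier2a and ier5. They were looked up by gene symbol among the 25640 genes of the counts table, ignoring case, or by the capital symbol of their family. For 9 of the 10 names a row was found, and these rows were 8 genes of the table: FOS, FOSL1, FOSL2, JUN, JUNB, JUND, egr1 and IER5. One row, JUNB, a single gene ID, answered to both junba and junbb. Which paralog it is was not told, and the other had no row of its own among the members. The gene ier2a was not analysed here. All 8 rows passed the filter on low counts.

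As background, Fos proteins cannot pair with themselves and bind DNA as dimers with Jun proteins; the dimers are called AP-1. Growth factor signalling through ERK drives the ternary complex factors and serum response factor at the Fos and egr1 genes, and stress signalling through JNK phosphorylates Jun. In liver these genes are known for a fast, short response to partial hepatectomy, but also to the handling, ischaemia and cell isolation that tissue meets on its way to the tube. In mammalian cells Yap with its Tead partners often binds the same enhancers as AP-1.

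The libraries were made from polyadenylated RNA of livers that were dissected and flash frozen. Neither group carries a label for treatment, age in days or sex, and the labels state neither the promoter that drives the transgene nor the form of Yap it encodes. They do not say how many fish stand behind a library, at which hour they were sampled or how long dissection took. Total gene counts were 71581315 to 87543545 in WT and 76038709 to 85208212 in lf:Yap. The transcript of the transgene's namesake, YAP1 (ENSDARG00000068401), lay at 20.4 to 27.4 CPM (read counts scaled to a common library size) in WT and at 291.4 to 442.9 CPM in lf:Yap, the direction that the labels imply. All 11 rows of hepatocyte markers were found, with a summed level of 87286 to 97722 CPM in WT and 115140 to 122940 CPM in lf:Yap. Over all 24674 tested genes, 164 passed edgeR's quasi-likelihood test at an adjusted p under 0.05. CPM are not divided by gene length, so levels are compared between libraries and not between genes.

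None of the 8 immediate early genes passed that test (edgeR, Benjamini-Hochberg adjustment over all genes). The share among all tested genes was 0.665%, with 0.555% higher in lf:Yap and 0.109% lower. At an unadjusted p under 0.05 there were 2 higher in lf:Yap, JUND and FOSL2, and 0 lower, against 6.12% of all tested genes higher and 5.2% lower. With DESeq2 1 of the 8, JUND, was higher (2.74% of all genes with a DESeq2 adjusted p), while egr1 had no DESeq2 adjusted p. With limma-voom 0 of the 8 passed (0.632% of all tested genes higher). The groups did not overlap for 1 of the 8, JUND, against 17.6% of all tested genes, 8.84% higher and 8.78% lower. Of the 8 log2 fold changes 6 lay above 0, against 11551 of all 24674 tested genes. Their median was 0.75, against a median of -0.034 over all tested genes. The median of the 8 went from 0.148 to 1.30 as 1 library at a time was left out. Fold changes are those of lf:Yap against WT, on the log2 scale, from the same edgeR fit. Since a liver piece holds several cell types, fewer cells of a type and less RNA per cell cannot be told apart in any of these values.

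**Figure D1:**
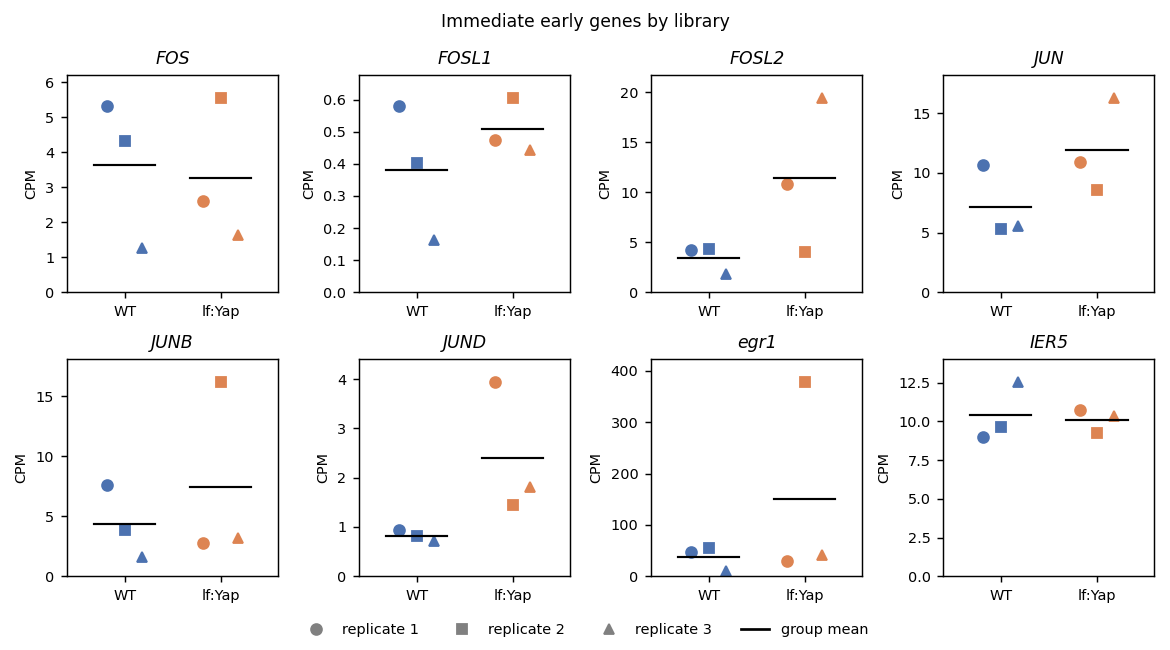
Each panel shows 1 immediate early gene, with its level in CPM (vertical axis from 0, scaled per gene) in each WT and lf:Yap library; symbols mark the replicate numbers and black lines the group means of 3 libraries. JUND is the gene whose groups do not overlap, and the mean of egr1 in lf:Yap is set by replicate 2 at 378.5 CPM.

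Among the Fos genes, FOS (ENSDARG00000031683), the family symbol here for fosab and the c-Fos subunit of AP-1, had 5.32, 4.31 and 1.26 CPM in WT replicates 1, 2 and 3. In lf:Yap replicates 1, 2 and 3 it had 2.60, 5.55 and 1.64 CPM. High and low libraries thus occurred in both groups, whose ranges overlapped almost wholly. The log2 fold change of FOS was -0.15 ± 0.62 (SE; 95% interval -1.62 to 1.31; adjusted p = 0.962, edgeR). Its sign changed when 1 library was left out, with values from -0.77 without lf:Yap replicate 2 to 0.24 without WT replicate 1.

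FOSL1 (ENSDARG00000015355) encodes Fra-1, a Fos relative without the activation domain of c-Fos. It stood at 0.580, 0.402 and 0.162 CPM in WT and at 0.475, 0.606 and 0.444 CPM in lf:Yap, from 14 to 46 reads a library. The groups overlapped, with a log2 fold change of 0.41 ± 0.53 (SE; 95% interval -0.83 to 1.65; adjusted p = 0.854, edgeR). FOSL2 (ENSDARG00000040623) encodes the related Fra-2. Its WT libraries held 4.17, 4.33 and 1.83 CPM and its lf:Yap libraries 10.8, 4.01 and 19.4 CPM. Replicates 1 and 3 of lf:Yap were above every WT library, while replicate 2 lay within the WT range. The log2 fold change of FOSL2 was 1.73 ± 0.59 (SE; 95% interval 0.33 to 3.12), with an unadjusted p of 0.0219 and an adjusted p of 0.332 by edgeR. It lay between 1.105 without lf:Yap replicate 3 and 2.14 without lf:Yap replicate 2.

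Among the Jun genes, JUN (ENSDARG00000043531), which encodes c-Jun, the partner that can also pair with itself, had 10.7, 5.27 and 5.58 CPM in WT. It had 10.9, 8.59 and 16.3 CPM in lf:Yap. WT replicate 1 lay among the lf:Yap libraries, and the other 2 were below all of them. The log2 fold change of JUN was 0.73 ± 0.37 (SE; 95% interval -0.131 to 1.5995; adjusted p = 0.525, edgeR). Without WT replicate 1 it was 1.15, and without lf:Yap replicate 3 it was 0.45.

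JUNB (ENSDARG00000074378) encodes a Jun protein that activates transcription less strongly than c-Jun. It read 7.62, 3.86 and 1.64 CPM in WT and 2.80, 16.2 and 3.23 CPM in lf:Yap. Only lf:Yap replicate 2 was above the WT range, and the other lf:Yap libraries lay inside it. The log2 fold change of 0.76 ± 0.80 (SE; edgeR's adjusted p = 0.813) rested on that library, since it was -0.53 without lf:Yap replicate 2.

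JUND (ENSDARG00000067850), a Jun protein that is present in many resting cells, was the member with the lowest p. Its WT libraries lay close together at 0.933, 0.815 and 0.707 CPM, and its lf:Yap libraries at 3.94, 1.45 and 1.82 CPM. Every lf:Yap library was above every WT library, but replicate 1 stood 2.17-fold above the next one. Its mean was 0.818 ± 0.113 CPM in WT against 2.40 ± 1.35 CPM for lf:Yap (SD, 3 libraries each). That is a log2 fold change of 1.55 ± 0.44 (SE; 95% interval 0.51 to 2.59), with an unadjusted p of 0.00947 in edgeR. The adjusted p was 0.242 in edgeR, 0.0343 in DESeq2 and 0.291 in limma-voom. Between fits that left out 1 library it ranged from 0.995 without lf:Yap replicate 1 to 1.82 without lf:Yap replicate 2, and its edgeR adjusted p from 0.226 to 0.558. The counts behind it were 61 to 74 reads in WT and 105 to 324 in lf:Yap.

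**Figure D2:**
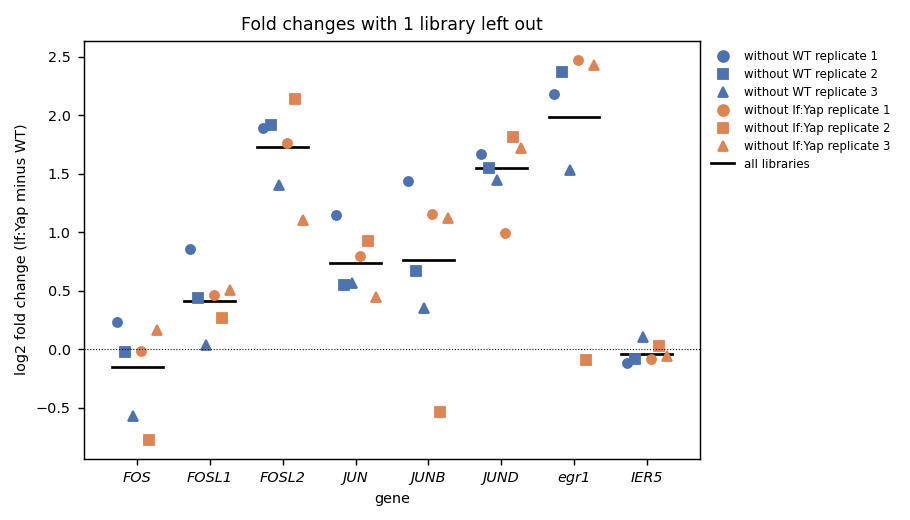
For each of the 8 genes (horizontal axis), the log2 fold change of lf:Yap against WT (vertical axis) is shown with all 6 libraries (black line) and with 1 library left out (symbols, coloured by the group of the library left out). JUNB and egr1 drop below 0 without lf:Yap replicate 2, at -0.53 and -0.09, while FOSL1, FOSL2, JUN and JUND stay above 0 in all 6 such fits.

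The zinc finger gene egr1 (ENSDARG00000037421) encodes a transcription factor induced through ERK and serum response factor. It had 47.2, 56.0 and 10.3 CPM in WT and 29.0, 378.5 and 41.9 CPM in lf:Yap. The library of lf:Yap replicate 2 was 6.76-fold above the next highest library, and the other lf:Yap libraries lay within the WT range. The log2 fold change of egr1 was 1.99 ± 1.07 (SE; 95% interval -0.55 to 4.52; adjusted p = 0.568, edgeR). Without lf:Yap replicate 2 it was -0.09 (adjusted p = 0.983, edgeR). DESeq2 gave egr1 no p at all.

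IER5 (ENSDARG00000009881), whose protein acts on heat shock factor 1 in mammalian cells, was the steadiest of the 8 genes for its spread relative to its level. It stood at 8.98, 9.63 and 12.5 CPM in WT and at 10.7, 9.23 and 10.4 CPM in lf:Yap. All 3 lf:Yap values lay within the WT range, and highest and lowest library differed by 1.40-fold. The log2 fold change of IER5 was -0.04 ± 0.21 (SE; 95% interval -0.54 to 0.46; adjusted p = 0.973, edgeR), an interval that leaves out a change of 1 on the log2 scale in either direction.

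The members differed widely in their spread between libraries, taken as the SD of log2(CPM + 2) within groups, pooled over both and ranked among all tested genes. This SD was 1.64 for egr1 (percentile 99.6), 0.908 for JUNB (98.1), 0.714 for FOSL2 (96.3) and 0.581 for FOS (93.3). It was 0.423 for JUN (85.3), 0.298 for JUND (71.4), 0.166 for IER5 (40.9) and 0.0971 for FOSL1 (18.7). The pseudocount of 2 lowers the spread of genes at few CPM, FOSL1 and JUND among them. From lowest to highest library over both groups, egr1 spanned 36.9-fold, FOSL2 10.6-fold, JUNB 9.86-fold, JUND 5.58-fold and FOS 4.40-fold. FOSL1 spanned 3.74-fold, JUN 3.09-fold and IER5 1.40-fold. Unlike the SD within groups, these spans also hold any difference between the groups.

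The libraries at the ends of these ranges recurred. Of the 8 genes, 6 had their lowest value in WT replicate 3, namely FOS, FOSL1, FOSL2, JUNB, JUND and egr1, while that library was the lowest for 18.9% of all tested genes. The highest value was that of lf:Yap replicate 2 for 4 of the 8, FOS, FOSL1, JUNB and egr1, against 12.3% of all tested genes. For FOS and FOSL1 it was only 1.04-fold above the next highest library, WT replicate 1. For JUNB it was 2.13-fold and for egr1 6.76-fold above the next. Averaged over the 8 genes, the gene-centred log2(CPM + 2) was 0.0615, -0.131 and -0.684 in WT replicates 1, 2 and 3. It was 0.0497, 0.549 and 0.155 in lf:Yap replicates 1, 2 and 3. The peak of this average in lf:Yap replicate 2 came mainly from egr1 and JUNB and was not shared by all 8 genes. FOSL2, JUN, JUND and IER5 had their lowest lf:Yap value there, at 4.01, 8.59, 1.45 and 9.23 CPM. Over all tested genes the same average of centred values stayed between -0.0165 and 0.0160. An average of so many centred and scaled values lies near 0 in any library, so it cannot show that the members were unusual. Other short lists described below ran both more and less widely than the members. The average ran from -4.86 to 2.82 for 10 rows of exocrine pancreas markers. For 10 rows of corticoid genes it ran from -1.22 to 0.928. It ran from -0.355 to 0.734 for 4 rows of neutrophil markers and from -0.196 to 0.172 for 10 rows of ERK feedback genes. The members share these libraries and are no independent replicates of their pattern.

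For FOS, JUN, JUNB and egr1 the genes of most like pattern were taken by the mean absolute difference of gene-centred log2(CPM + 2) over the 6 libraries, among genes with a symbol and a mean of at least 5 CPM. Nearest to FOS were FDXR (ENSDARG00000089369), at 0.131, CDYL (ENSDARG00000038985) and apcs (ENSDARG00000045089). Nearest to JUN were LMNA (ENSDARG00000013415), which encodes A-type lamins, at 0.0957, TSPAN33 (ENSDARG00000004497) and enox2 (ENSDARG00000078942). Nearest to JUNB were PADI1 (ENSDARG00000044167), at 0.261, the clock gene ciarta (ENSDARG00000058094) and CEBPB (ENSDARG00000042725), a liver transcription factor gene. Nearest to egr1 were igfbp1b (ENSDARG00000038666), an insulin-like growth factor binding protein gene, at 0.610, phf20l1 (ENSDARG00000017427) at 0.647 and JUNB itself at 0.661. Like egr1, igfbp1b was highest in lf:Yap replicate 2, with 122.5 CPM against 11.7 to 35.5 CPM elsewhere. Since igfbp1b was picked for its likeness to egr1 over these same libraries, that shared peak is no separate result. The nearest genes of egr1 also lay farther from it than those of FOS, JUN or JUNB from theirs. Among the members, FOS lay at like distances from JUNB (0.346) and its relative FOSL1 (0.395), and farther from its relative FOSL2 (0.934). FOSL1 lay at 0.162 to 0.606 CPM, where the pseudocount of 2 flattens its values, so its distance from FOS cannot show a like pattern.

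The other genes of the AP-1 family were tested as a list of 16 names, for which 13 rows were found. Of these 0 passed (edgeR; 1 above and 0 below 0 at an unadjusted p under 0.05; 1 higher by DESeq2, none by limma-voom), and 6 of 13 lay above 0 with a median of -0.15. The 3 of lowest p were JDP2, ATF3 and MAFG. JDP2 (ENSDARG00000040137), whose protein pairs with Jun and represses AP-1 sites, had 0.731, 0.871 and 0.846 CPM in WT and 2.66, 1.61 and 1.83 CPM in lf:Yap. These groups did not overlap, and the log2 fold change was 1.32 ± 0.32 (SE; adjusted p = 0.173 in edgeR, 0.0101 in DESeq2). ATF3 (ENSDARG00000007823), a stress-induced partner of Jun, had 4.85, 10.97 and 8.40 CPM in WT and 5.09, 2.86 and 5.64 CPM in lf:Yap, a log2 fold change of -0.83 ± 0.38 (SE; edgeR's adjusted p = 0.485). MAFG (ENSDARG00000018109), a small Maf gene, had a log2 fold change of -1.31 ± 0.68 (SE; edgeR's adjusted p = 0.549) at under 1 CPM.

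Other immediate early transcription factor genes gave 16 rows for 19 names, and 1 of them passed, against 0.665% of all tested genes. CSRNP1 (ENSDARG00000038429), a nuclear protein gene induced by axin in mammalian cells, stood at 9.54, 9.05 and 8.91 CPM in WT and at 84.1, 102.1 and 45.1 CPM in lf:Yap. All WT libraries were close together and every lf:Yap library was far above them. CSRNP1 rose 8.41-fold (log2 fold change 3.07 ± 0.33, SE; edgeR's adjusted p = 0.0144). Its direction held when any 1 of the 6 libraries was left out, with values of 2.82 to 3.35. It passed there without lf:Yap replicate 2 (adjusted p = 0.0346) or 3 (0.0155), but not without lf:Yap replicate 1 (0.0604) or WT replicate 1 (0.0584), 2 (0.0883) or 3 (0.0733, all edgeR). Its paralog csrnp1a (ENSDARG00000031426), named after its values were seen, had 2.69, 1.56 and 0.761 CPM in WT and 10.6, 42.4 and 7.53 CPM in lf:Yap. Its log2 fold change was 3.59 ± 0.79 (SE; adjusted p = 0.137 in edgeR, 2.49e-05 in DESeq2), again with lf:Yap replicate 2 as the highest library. In the list, 5 rows lay above and 2 below 0 at an unadjusted p under 0.05, DESeq2 called 2 higher and 1 lower and limma-voom 1 higher. The median was 0.012, with 8 of 16 rows above 0.

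Genes close to egr1 itself, also named after their values were seen, were low in CPM. egr2a (ENSDARG00000044098), of the egr2 or Krox20 family, had 0.668, 0.380 and 0.162 CPM in WT and 0.706, 3.28 and 0.444 CPM in lf:Yap, so lf:Yap replicate 2 stood out as it did for egr1. EGR3 (ENSDARG00000089156) in the same libraries did not share this, with 0.0826 CPM (6 reads) in lf:Yap replicate 2 and 0.174 to 0.668 CPM in WT. Nor did EGR2 (ENSDARG00000042826), with 0.0826 CPM (6 reads) in lf:Yap replicate 2 and 0.0811 to 0.313 CPM in WT. For egr4 (ENSDARG00000077799) lf:Yap replicate 2 had 0.468 CPM, within the WT range of 0 to 0.504 CPM. NR4A1 (ENSDARG00000000796), an orphan nuclear receptor gene induced with egr1 in many cells, had 0.0927 CPM in WT replicate 3 and 1.84 CPM in WT replicate 1, a wider range than its 0.220 to 0.596 CPM in lf:Yap.

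**Figure D3:**
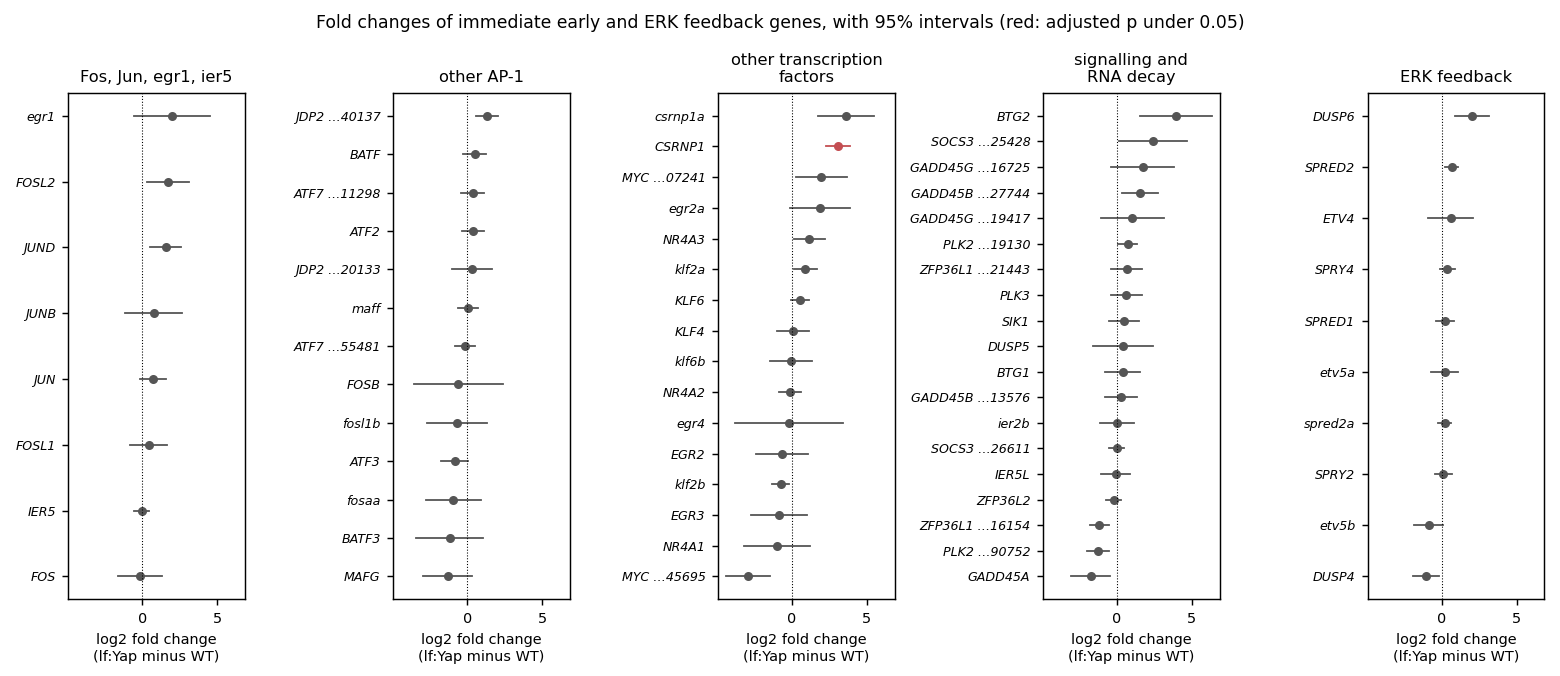
Log2 fold changes of lf:Yap against WT (horizontal axis) with 95% intervals are shown for each tested row of 5 gene lists (panels); symbols shared by several rows carry the last digits of the gene ID. CSRNP1, in red, is the row that passed edgeR's test, and the intervals of egr1, JUNB, JUN, FOSL1, FOS and IER5 include 0.

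Early response genes of signalling and RNA decay gave 19 rows for 25 names, and 0 passed (edgeR; 4 above and 3 below 0 at an unadjusted p under 0.05; 1 higher and 3 lower by DESeq2, none by limma-voom). The median was 0.39, with 13 of 19 rows above 0. The 3 of lowest p were ZFP36L1, PLK2 and BTG2. ZFP36L1 (ENSDARG00000016154), which encodes a protein that speeds the decay of AU-rich transcripts, had 56.9, 52.6 and 49.1 CPM in WT and 16.5, 22.8 and 31.6 CPM in lf:Yap, without overlap (log2 fold change -1.16 ± 0.27, SE; adjusted p = 0.151, edgeR, and 0.00836, DESeq2). PLK2 (ENSDARG00000090752), a polo-like kinase gene, had a log2 fold change of -1.26 ± 0.32 (SE; edgeR's adjusted p = 0.183). BTG2 (ENSDARG00000020298), an antiproliferative gene that responds to p53 and to growth factors, had 6.73, 5.09 and 1.08 CPM in WT and 22.4, 151.7 and 24.1 CPM in lf:Yap. Every lf:Yap library was above the WT libraries, and lf:Yap replicate 2 and WT replicate 3 were at the ends as they were for egr1. Its log2 fold change was 3.94 ± 1.01 (SE; adjusted p = 0.191 in edgeR, 0.000113 in DESeq2), and 2.44 to 4.43 without 1 library.

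Upstream of Fos and Jun, 23 rows of kinases and of serum response, ternary complex and Creb factors were tested, and 0 passed (edgeR; 0 at an unadjusted p under 0.05 in either direction; 0 by limma-voom or DESeq2), with a median of 0.10. Among those of lowest p were the kinase gene MAP2K1 (ENSDARG00000007825), with a log2 fold change of 0.44 ± 0.21, and the SRF coactivator gene mrtfab (ENSDARG00000076229), with 0.37 ± 0.22 (SE; adjusted p = 0.489 and 0.605, edgeR). The ERK feedback list gave 10 rows, of genes that limit ERK signalling and of ETV4, etv5a and etv5b, which ERK signalling induces. Of the 10 rows 0 passed (edgeR, with 2 above and 1 below 0 at an unadjusted p under 0.05). DESeq2 called 1 higher and limma-voom 0, and the median was 0.21. DUSP6 (ENSDARG00000070914), the phosphatase that acts on ERK, had 34.2, 18.4 and 7.95 CPM in WT and 83.6, 87.2 and 76.6 CPM in lf:Yap. Its groups did not overlap and the lf:Yap libraries lay close together, unlike those of egr1 (log2 fold change 2.03 ± 0.49, SE; adjusted p = 0.162 in edgeR, 0.00252 in DESeq2). SPRED2 (ENSDARG00000008372), an inhibitor of Ras signalling to Raf, had a log2 fold change of 0.65 ± 0.20, and DUSP4 (ENSDARG00000044688), another phosphatase of the family, one of -1.06 ± 0.36 (SE; adjusted p = 0.265 and 0.332, edgeR).

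Downstream, 20 rows of genes known as AP-1 targets were tested and 0 passed (edgeR; 3 above and 1 below 0 at an unadjusted p under 0.05; 0 by limma-voom or DESeq2), with 13 above 0 and a median of 0.22. MMP9 (ENSDARG00000042816), a matrix metalloproteinase gene, had 7.65, 0.737 and 7.85 CPM in WT and 18.9, 16.1 and 27.8 CPM in lf:Yap (log2 fold change 1.95 ± 0.76, SE; edgeR's adjusted p = 0.395). TIMP2 (ENSDARG00000075261), a metalloproteinase inhibitor gene, stood at a log2 fold change of 0.68 ± 0.24, and ITGB1 (ENSDARG00000071863), an integrin gene, one of -0.54 ± 0.18 (SE; adjusted p = 0.345 and 0.310, edgeR).

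**Figure D4:**
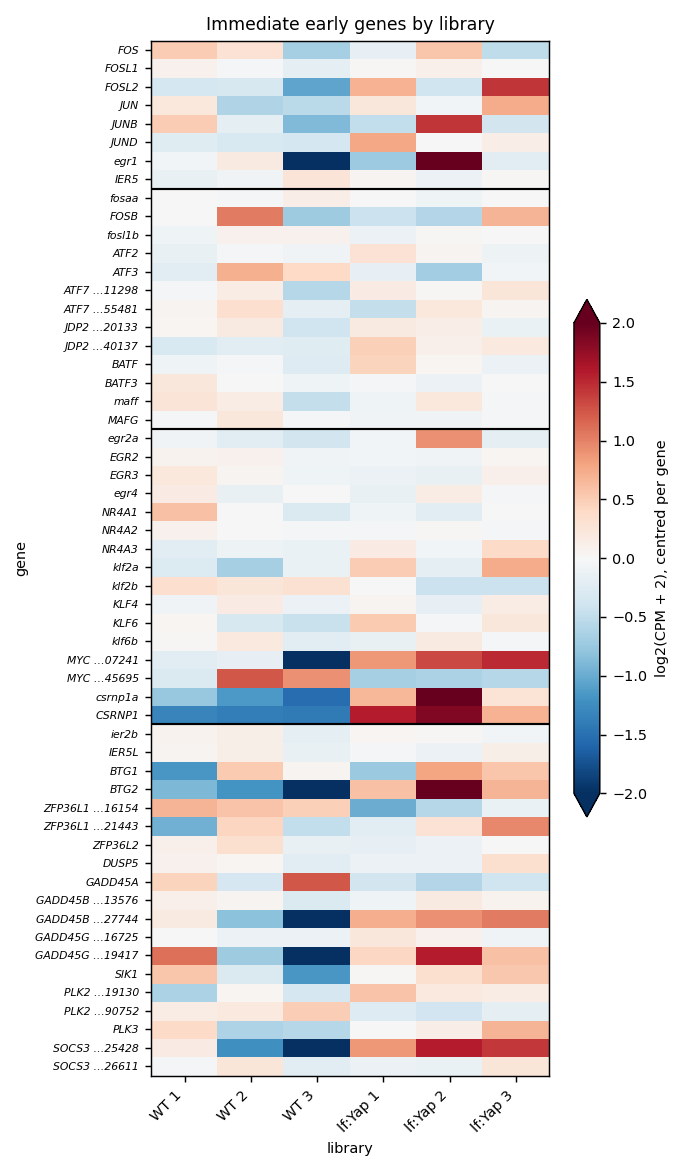
Rows are the 8 members and the other immediate early genes in 3 lists set apart by black lines, columns are the 6 libraries, and colour is log2(CPM + 2) centred per gene, cut at 2 in either direction. WT replicate 3 is the lowest library for 6 of the 8 members and lf:Yap replicate 2 the highest for 4, by only 1.04-fold for FOS and FOSL1. That WT library is also lowest for 8 of 16 rows of other transcription factors and 10 of 19 rows of signalling and RNA decay genes. For other AP-1 genes it is lowest for 5 of 13 rows, and lf:Yap replicate 2 is highest for 0.

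Because handling and stress induce these genes, lists of genes for such exposures were read in the same libraries. Of 16 rows of heat shock genes 0 passed (edgeR; 1 above and 0 below 0 at an unadjusted p under 0.05; 1 higher by DESeq2, none by limma-voom), with a median of -0.14 and 6 above 0. BAG3 (ENSDARG00000039486), a co-chaperone gene, had 15.2, 12.8 and 4.56 CPM in WT and 45.9, 25.6 and 54.1 CPM in lf:Yap (log2 fold change 1.95 ± 0.49, SE; adjusted p = 0.180, edgeR, and 0.00485, DESeq2). The others of lowest p were dnajb1b (ENSDARG00000041394), with 0.40 ± 0.24, and HSPA8 (ENSDARG00000037403), with 0.45 ± 0.31 (log2, SE; adjusted p = 0.613 and 0.684, edgeR). The inducible chaperone genes hsp70l (ENSDARG00000055723) and hsp70.1 (ENSDARG00000029688), added after their values were seen, overlapped between the groups, at 2.95 to 5.90 CPM and 6.05 to 15.1 CPM in WT and 3.22 to 5.14 CPM and 6.24 to 11.9 CPM in lf:Yap. In lf:Yap replicate 2, where egr1 was highest, hsp70l had 5.14 CPM, its highest value in lf:Yap and within its WT range. The mean gene-centred log2(CPM + 2) of the heat shock list was 0.164 there, against 0.1105 and -0.251 in lf:Yap replicates 1 and 3. A part of heat shock in the level of egr1 was not tested.

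Of 12 rows of hypoxia genes 2 passed and both rose (edgeR; 3 above and 1 below 0 at an unadjusted p under 0.05), while the list's median was 0.063. Among all tested genes 0.555% passed as higher and 0.109% as lower. At an unadjusted p under 0.05 these shares were 6.12% and 5.2% (edgeR). In the hypoxia list DESeq2 called 2 higher and limma-voom 2 higher. PFKFB4 (ENSDARG00000029075), a regulator of glycolytic flux, rose 5.99-fold from 4.24 ± 1.27 to 25.4 ± 10.7 CPM, and epoa (ENSDARG00000055163), which encodes erythropoietin, rose 5.93-fold, from a mean of 3.49 ± 1.09 to 20.7 ± 8.502 CPM (SD, n = 3 each; adjusted p = 0.0377 and 0.0466, edgeR). Neither passed in any of the 6 fits that left out 1 library, where their adjusted p lay between 0.0627 and 0.185 (edgeR). Both were highest in lf:Yap replicate 2, at 37.8 and 29.7 CPM. VEGFA (ENSDARG00000034700), named after its values were seen, had 235.5 to 409.8 CPM in WT and 225.8 to 347.1 CPM in lf:Yap.

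A list of genes tied to corticoids, the stress steroids of fish, held 10 rows, including the receptor gene NR3C1. Of these 3 rose and 0 fell (edgeR, with 5 higher at an unadjusted p under 0.05), against 0.555% and 0.109% of all tested genes. DESeq2 called 5 higher and limma-voom 4 higher. In the list 6 rows lay above 0 and 4 below 0, with a median of 1.501. Lists of this paragraph were chosen with earlier results known, so their calls are no independent reading of stress or sampling hour. KLF9 (ENSDARG00000068194) rose 7.36-fold, HSD11B2 (ENSDARG00000001975), a cortisol-inactivating enzyme gene, 5.08-fold, and FKBP5 (ENSDARG00000028396) by 4.26 on the log2 scale, with adjusted p-values of 0.00985, 0.00938 and 0.0274 by edgeR. KLF9 and HSD11B2 missed the threshold without WT replicate 3 (adjusted p = 0.0507 for each) and FKBP5 without WT replicate 3 or any single lf:Yap library (0.069 to 0.131, edgeR). Of 27 rows of clock genes, whose levels follow the hour of sampling, 1 rose and 2 fell by edgeR. Among all tested genes 0.555% rose and 0.109% fell. At an unadjusted p under 0.05, 4 clock rows lay above and 4 below 0 (edgeR). DESeq2 called 2 higher and 3 lower, and limma-voom 1 higher and 1 lower. The clock genes that edgeR called were nr1d2a (ENSDARG00000003820), with a log2 fold change of 2.79 ± 0.25, and nr1d4b (ENSDARG00000059370) and BHLHE40 (ENSDARG00000004060), with -2.68 ± 0.40 and -2.72 ± 0.42 (SE; adjusted p = 0.00925, 0.042 and 0.0493). Left out one at a time, WT replicate 3 ended the call of nr1d2a (adjusted p = 0.0543), and every library but WT replicate 1 those of the other 2 (0.0627 to 0.192, edgeR). With all 6 libraries, nr1d4b missed the threshold in limma-voom (adjusted p = 0.0595) and BHLHE40 in edgeR with no filter (0.0514). Of 14 rows of inflammation genes 1, nfkbiab (ENSDARG00000007693), rose and 0 fell, by 2.83 ± 0.37 on the log2 scale (SE; edgeR's adjusted p = 0.0264), but it passed in 1 of the 6 fits without a library, the one without WT replicate 1. The shares among all tested genes were again 0.555% and 0.109%. In the inflammation list 4 rows lay above and 1 below 0 at an unadjusted p under 0.05 (edgeR). There DESeq2 called 2 higher and 1 lower, and limma-voom 1 higher.

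**Figure D5:**
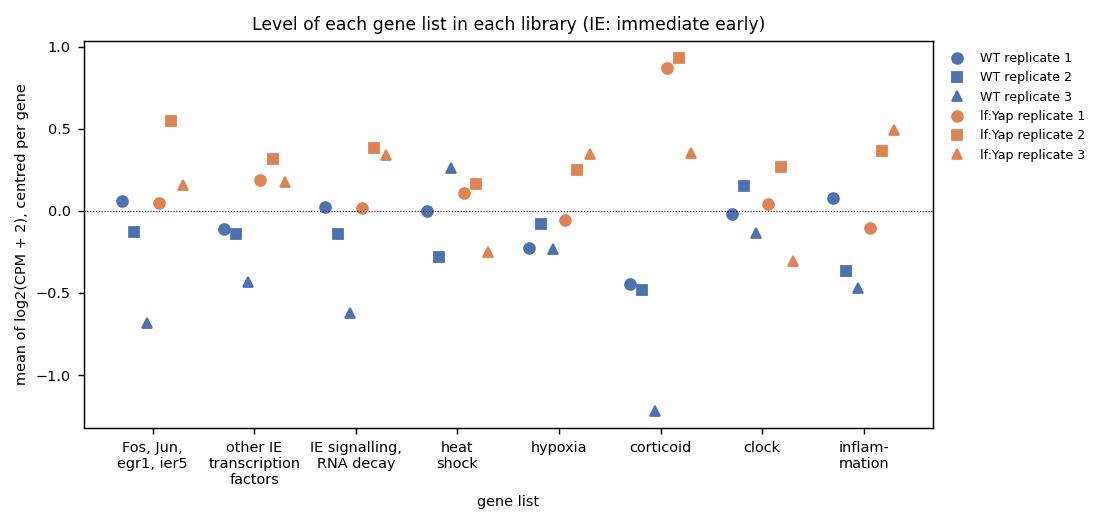
For 8 gene lists (horizontal axis), the mean over the list's rows of log2(CPM + 2), centred per gene (vertical axis), is shown for each library, coloured by group and with a symbol for the replicate number. WT replicate 3 is lowest for the Fos and Jun list at -0.684 and for the corticoid list at -1.22. It is lowest too for the lists of other transcription factors (-0.430), signalling and RNA decay (-0.6215), hypoxia (-0.234) and inflammation (-0.467). For heat shock genes it is highest, at 0.258.

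The list levels by library did not all follow the order of the average over the member genes. The mean gene-centred log2(CPM + 2) of the corticoid list was -0.446, -0.485 and -1.22 in WT replicates 1, 2 and 3 and 0.869, 0.928 and 0.351 in lf:Yap replicates 1, 2 and 3, so its groups did not overlap and its extremes were the libraries at the ends for the members. Neither trait was particular to the corticoid list. The groups also lay apart, higher in lf:Yap, for other immediate early transcription factors, ERK feedback genes, hypoxia genes and endothelial markers. Macrophage markers lay apart with lf:Yap lower. WT replicate 3 was lowest and lf:Yap replicate 2 highest also for other immediate early transcription factors (-0.430 and 0.3125) and for signalling and RNA decay genes (-0.6215 and 0.383). The list of other AP-1 genes was lowest in WT replicate 3 too, at -0.1835, but highest in WT replicate 2, at 0.1995. In lf:Yap replicate 2 that list was at -0.0582. WT replicate 3 was lowest for inflammation genes as well, at -0.467. The lists are not separate readings, since some share rows. Both SOCS3 rows are on the inflammation and the signalling lists, and MMP9 is on the inflammation and AP-1 target lists. Both PER1 rows are on the corticoid and clock lists. The heat shock list had its highest level in WT replicate 3, at 0.258, and its lowest in WT replicate 2, at -0.280. The hypoxia list was at -0.0553, 0.250 and 0.344 in the lf:Yap libraries and at -0.223, -0.0820 and -0.234 in WT. The clock list was highest in lf:Yap replicate 2, at 0.267, and lowest in lf:Yap replicate 3, at -0.308. The part of corticoid exposure, hour of sampling, hypoxia or handling in the levels of the immediate early genes was not tested.

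Markers of other cells also differed between libraries. The summed level of 10 rows of exocrine pancreas genes was 15661, 601.2 and 1427 CPM in WT and 12391, 54.0 and 17250 CPM in lf:Yap, so lf:Yap replicate 2, the library highest in egr1 and JUNB, was the lowest in pancreatic transcripts; none of these 10 genes was at 0. Macrophage markers (13 rows for 10 names) summed to 448.3 to 545.2 CPM in WT and 314.4 to 430.7 CPM in lf:Yap. Neutrophil markers (4 rows for 7 names) summed to 3.74 to 9.91 CPM in WT and 4.06 to 19.99 CPM in lf:Yap, highest in replicate 3, where FOSL2 and JUN were highest too. In lf:Yap replicate 1, the next highest library for both genes, neutrophil markers summed to 4.295 CPM. Their row mmp13a is also on the AP-1 target list. Endothelial markers (5 rows for 9 names) summed to 49.0 to 63.5 CPM in WT and 69.9 to 79.7 CPM in lf:Yap. Lymphocyte markers (6 rows) summed to 10.8 to 16.1 CPM in WT and 18.9 to 22.8 CPM in lf:Yap, erythrocyte markers (6 rows) to 45.7 to 103.1 and 57.5 to 109.4 CPM, stellate cell and fibroblast markers (11 rows) to 77.1 to 122.0 and 88.0 to 134.8 CPM, cholangiocyte markers (9 rows) to 2664 to 3437 and 2461 to 3486 CPM, and intestinal markers (4 rows, 1 of them at 0 in a library) to 23.3 to 78.6 and 1.71 to 155.7 CPM. Their part in the values of FOS, JUN, JUNB, FOSL2 and egr1 was not tested.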

How the data were processed

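Polyadenylated RNA from liver was sequenced in 6 libraries, 3 WT and 3 lf:Yap, grouped by the sample titles. STAR 2.3.0e and HTSeq 0.6.0 are named in the submitters' processing notes; build, annotation and strand setting were not given in the sources used here. Values deposited by the authors are raw counts of reads for each Ensembl gene. Symbols for 17999 of the 25640 IDs came from an ID table. Its capital symbols lack the paralog letter, so a row may answer to several names, and reads that paralogs share may be split. The members and lists were chosen with earlier results of these data known.

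The test was edgeR 4.0.16 (R 4.3.3), with filterByExpr by group (24674 genes kept), TMM scaling, a robust quasi-likelihood fit, two-sided p-values and Benjamini-Hochberg adjustment at 0.05. CPM use TMM-scaled library sizes. The SE is the log2 fold change over the square root of F, and 95% intervals use the fit's degrees of freedom. Alternatives were DESeq2 1.42.0, voom in limma 3.58.1, RLE scaling, other filters, a replicate block and fits without 1 library. The procedure was tested on simulated data. Named beside the members were the genes of a list that passed, otherwise its 3 of lowest p, and the 3 of most like pattern; any other gene is marked as named after its values were seen. One gene that this rule names is not reported here. Libraries of a group differed far beyond sampling noise (chi-square per degree of freedom 200.6 to 359), so each counted once. The labels do not say that they come from separate fish, so p-values reflect only how far these libraries vary, which may be technical. Sequences were not used here.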

Additional observations from a re-analysis of the deposited data

How the results depend on the processing

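The number of members that passed stayed at 0 under RLE scaling, limma-voom, no filter, filters of 1 or 5 CPM in 3 libraries, the replicate block and all 6 fits without 1 library, and was 1 (JUND) by DESeq2. The 5 CPM filter left egr1, JUN and IER5, and the 1 CPM filter removed FOSL1. The number of changed genes among all tested, 164, was 1063 by DESeq2 (673 higher, 390 lower), 17 with the replicate block, and 32 (no WT replicate 3) to 94 (no WT replicate 1) when 1 library was left out; the cause was not tested. Signs that turned when 1 library was left out were those of FOS (range -0.771 to 0.237; 0.169 for lf:Yap replicate 3 left out), JUNB (-0.533 to 1.44), egr1 (-0.0907 to 2.48) and IER5 (-0.115 to 0.106; 0.0248 for lf:Yap replicate 2 left out). Whether replicate numbers pair the libraries could not be told. Deviations of same-numbered libraries from their group means correlated at 0.148, 0.169 and -0.299, and those of other pairs at -0.348 to 0.232. As the deviations of 3 libraries sum to 0 in each group, these values are tied together and cannot exclude pairing. The replicate block ended the calls of all 10 list genes named as passing, with an edgeR adjusted p of 0.0536 for KLF9 and HSD11B2, 0.0560 for nr1d2a, 0.0595 for epoa, 0.0603 for CSRNP1, FKBP5 and nfkbiab, 0.0927 for BHLHE40, 0.101 for nr1d4b and 0.126 for PFKFB4. Their directions did not turn, and no member changed its side of the threshold under it. Of the other settings that kept all 6 libraries, limma-voom ended the call of nr1d4b (adjusted p = 0.0595) and the lack of a filter that of BHLHE40 (0.0514, edgeR).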

Other observations

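Among early response genes, some pairs of rows that share a symbol lay in opposite directions; they were picked after their values were seen. MYC (ENSDARG00000007241), a growth-promoting transcription factor gene, had 179.2, 184.4 and 19.4 CPM in WT and 379.2, 521.9 and 591.1 CPM in lf:Yap, while the other MYC row (ENSDARG00000045695) had 1.31, 7.52 and 5.62 CPM in WT and 0.560, 0.606 and 0.721 CPM in lf:Yap. Neither passed edgeR's test (adjusted p = 0.372 and 0.121), while DESeq2 gave an adjusted p of 0.0758 and 0.000101. ZFP36L1 (ENSDARG00000021443) had a log2 fold change of 0.64 ± 0.43 against -1.16 ± 0.27 (SE) for the other ZFP36L1 row, and PLK2 (ENSDARG00000019130) one of 0.71 ± 0.28 against -1.26 ± 0.32 for the other PLK2 row. The difference between the paralogs was not tested.

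SOCS3 and GADD45G were likewise named after their values were seen. SOCS3 (ENSDARG00000025428), a feedback inhibitor of cytokine signalling, had 18.6, 5.91 and 0.649 CPM in WT and 31.7, 52.8 and 47.0 CPM in lf:Yap, with WT replicate 3 again lowest, whereas the other SOCS3 row (ENSDARG00000026611) had 25.7 to 35.7 CPM in WT and 27.1 to 35.7 CPM in lf:Yap. GADD45G (ENSDARG00000019417), a growth arrest and stress gene, ranged from 14.4 CPM in WT replicate 3 to 269.1 CPM in WT replicate 1, and had 374.8 CPM in lf:Yap replicate 2.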
